A study of Mus musculus with 12 samples.

Results

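Toll-like receptors are the innate immune sensors of microglia, the resident macrophages of the CNS. CD14 hands bacterial lipopolysaccharide to TLR4, TLR2 recognises lipoproteins at the cell surface, and TLR7 recognises single-stranded RNA inside endosomes. All of these receptors, like the interleukin-1 receptor, pass the signal to the adaptor MyD88, which gathers the kinases IRAK4, IRAK1 and IRAK2 and through them reaches TRAF6 and the NF-κB and MAP kinase pathways, while IRAK3 (also called IRAK-M) lacks normal kinase function and restrains the pathway.

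The mRNA of these receptors, the adaptor and the kinases was followed in adult and aged mouse microglia. The genes were chosen by symbol alone, as every gene of the panel whose symbol begins with Tlr or Irak and a digit, with Myd88 and Cd14, and 9 of the 770 genes of the NanoString nCounter Neuroinflammation panel qualified: Cd14, Tlr2, Tlr4, Tlr7, Myd88, Irak1, Irak2, Irak3 and Irak4. NanoString counts RNA molecules directly with color-coded probes and no amplification. Aged microglia (mice over 80 weeks of age) had been fixed, permeabilized, stained for phosphorylated ERK1/2 and sorted into P-ERK1/2 High (n = 4) and P-ERK1/2 Low (n = 4), and adult microglia (12 to 20 weeks) were processed in the same way without that split (n = 3). The comparisons ask how the 2 aged populations differ from each other and from adult cells.

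The labels name C57B6 mice and call mice and cells untreated. The study's own account differs: it describes mice hemizygous for Cx3cr1 CreERT2, a tamoxifen-inducible Cre driven by the Cx3cr1 promoter, and dates both ages from tamoxifen, given recently in adult mice and long before in aged mice. Age and the time since tamoxifen cannot be told apart. The study's methods describe microglia gated as YFP+, CD45 intermediate and Ly6G-, with the fluorescent protein carried by cells that express Cx3cr1, and they state that each sample pooled the CNS of a male and a female mouse. A further adult sample, number 11, is marked in its label as excluded for poor quality and is kept out of all group values here. Spread and p-values therefore describe differences between pooled samples. In sorted bulk RNA, fewer cells of a type and less RNA per cell cannot be told apart.

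The deposited values are counts multiplied by 1 factor per sample that sets the 13 housekeeping genes to a common geometric mean of 172.7. The adult samples had total counts of 137980 to 326575, the P-ERK1/2 Low samples 123798 to 157209 and the P-ERK1/2 High samples 650965 to 1539936, so P-ERK1/2 Low values rest on the fewest molecules. Detection above background required a count over the mean plus 2 SD of the sample's 8 negative control probes, and 410 to 484 genes passed in P-ERK1/2 Low samples against 589 to 673 in P-ERK1/2 High. Of the 9 genes, 8 were above background in all 8 aged samples, and Irak3 was above it in none of them. Of 9 microglial markers, Cx3cr1 and Csf1r among them, 6 were above background in all adult samples, 3 in all P-ERK1/2 Low samples and 9 in all P-ERK1/2 High samples. Their values summed to 3789 to 4143 in adult, 3713 to 4086 in P-ERK1/2 Low samples and 3088 to 3731 in P-ERK1/2 High samples, and Csf1r alone made up most of this sum in P-ERK1/2 Low (mean 2745). P2ry12 and Gpr34 were at background in all P-ERK1/2 Low samples. Calls required a limma p under 0.01 and an absolute log2 fold change above 1. Of the 9, 4 were called higher in P-ERK1/2 High than Low, where 28.2% of the panel was. Tmem119 and Sall1 had log2 fold changes of 2.02 and 1.70, each above background in 1 of 4 P-ERK1/2 Low samples. P2ry12 and Gpr34 were at least 1.77-fold and 1.32-fold higher than the mean background in P-ERK1/2 Low. Csf1r and Mertk were lower in P-ERK1/2 High without a call (-0.84, limma adjusted p = 0.0059, and -0.63, adjusted p = 0.028). In P-ERK1/2 Low, 3 were called lower than in adult (Fcrls -2.31, Olfml3 -1.56, Tmem119 -1.03), against 2.73% of the panel. In P-ERK1/2 High, 2 were called lower than in adult (Olfml3 -1.65, Fcrls -1.57), against 7.66%, and 1 higher (P2ry12, 1.00), against 29.2%. The part of these markers in the values of the 9 genes was not tested.

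**Figure D1:**
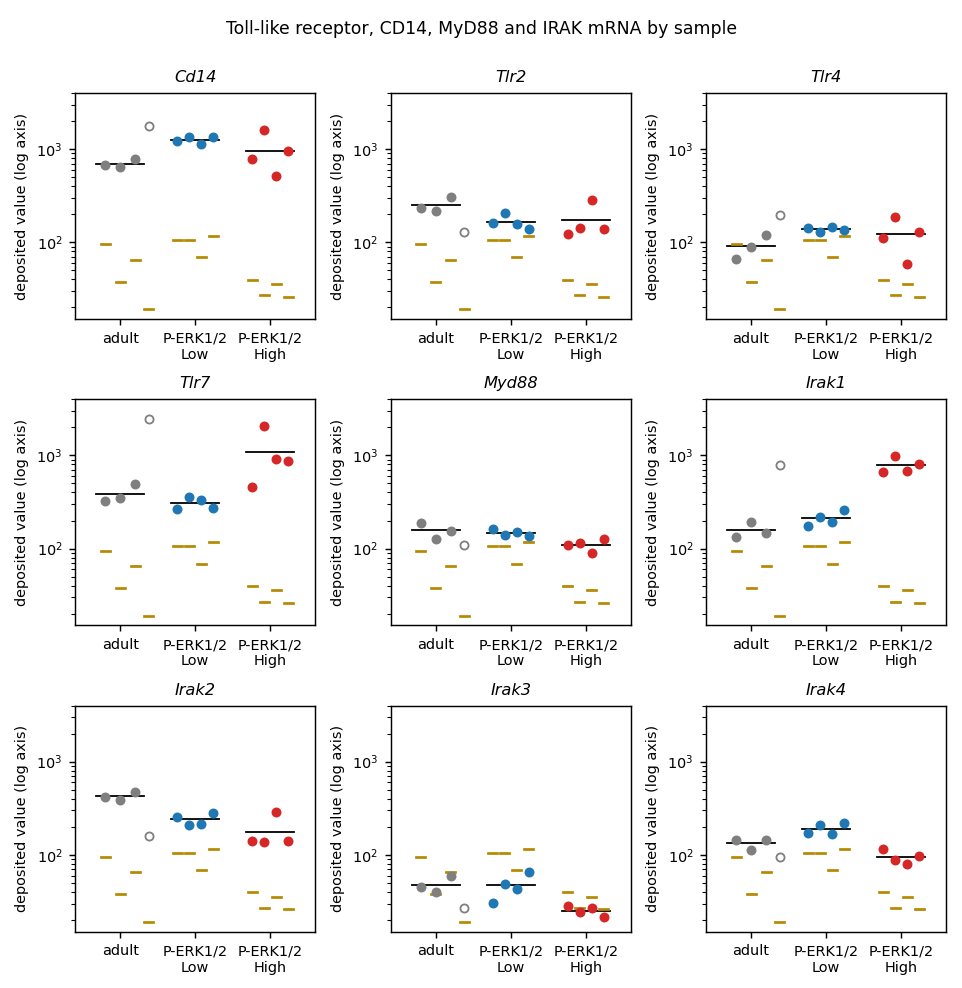
Deposited value of each gene on a log axis, 1 filled point per sample, with the group mean as a black line; the open circle is the excluded adult sample 11 and the short ochre dashes are each sample's background. Irak1 lies between 656.11 and 993.52 in P-ERK1/2 High and no higher than 258.44 in the other kept samples, while most Irak3 points lie at or under their background.

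Tlr7 and Irak1 were the genes called between the aged populations. Both had higher values in P-ERK1/2 High than in P-ERK1/2 Low, Irak1 by 3.68-fold and Tlr7 by 3.02-fold, and both are encoded on the X chromosome. Irak4 was lower, at 0.501 of its P-ERK1/2 Low value as deposited, but higher without scaling and with the positive controls alone. The remaining receptors, Cd14, Tlr2 and Tlr4, gave no call, and their P-ERK1/2 High samples were widely spread. A gene was called at limma p under 0.01 with an absolute log2 fold change above 1, and 2 of the 9 genes were called higher and 0 lower, where 28.2% of all 770 genes were called higher and 9.61% lower. At an adjusted p under 0.05 with no fold limit, 4 of the 9 passed (Tlr7, Irak1, Irak3 and Irak4), against 52.2% of the panel, although Irak3 was at background in both groups. A test of each gene alone with unequal variances also called 0 lower, and 2 of the 9 were lower at an unadjusted limma p under 0.05. The groups did not overlap for 5 of the 9 (Tlr7, Myd88, Irak1, Irak3 and Irak4), against 49.4% of the panel. The counts for the 9 genes are near those of the panel at large. The median log2 fold change was -0.42 over the 9 genes and 0.26 over the panel.

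Cd14, the lipopolysaccharide co-receptor, was read in the adult samples at 669.32, 647.46 and 775.83, in the P-ERK1/2 Low samples at 1216.38, 1353.23, 1123.58 and 1345.54, and in the P-ERK1/2 High samples at 780.28, 1610.36, 518.79 and 946.44. Every P-ERK1/2 Low sample lay above every adult sample, while the P-ERK1/2 High samples ran from below the adult range to above the P-ERK1/2 Low range. From highest to lowest the group means were 1260 ± 110 in P-ERK1/2 Low (SD, n = 4), 964 ± 465 in P-ERK1/2 High (SD, n = 4) and 697.5 ± 68.7 in adult (SD, n = 3). Cd14 was higher in P-ERK1/2 Low than in adult by 1.81-fold (log2 fold change 0.85 ± 0.14 SE, limma adjusted p = 0.0047). It stayed under the fold limit for a call, and its log2 fold change ran from 0.00 without scaling to 0.85 over 7 scalings of the samples. P-ERK1/2 High differed from neither neighbour beyond the spread (adjusted p = 0.19 against P-ERK1/2 Low and 0.44 against adult).

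Tlr4, the lipopolysaccharide receptor that Cd14 serves, had values of 65.8, 89.67 and 121.07 in adult, 142.31, 129.71, 147.14 and 135.37 in P-ERK1/2 Low, and 110.77, 188.7, 58.39 and 130.5 in P-ERK1/2 High. The pattern over samples was that of Cd14: P-ERK1/2 Low above adult without overlap, and P-ERK1/2 High spread over both. The values lay close to background in P-ERK1/2 Low, where counts were 33 to 55, and adult sample 1 was under it. No comparison of Tlr4 reached an adjusted p of 0.05 (0.063 for P-ERK1/2 Low against adult, log2 fold change 0.63 ± 0.21 SE).

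Of all other genes on the panel, Cd14 was the one whose pattern over the 11 kept samples was most like that of Tlr4 (Pearson r = 0.896 on log2 values), and for Cd14 the closest genes were Pcna, Ctss (r = 0.952) and Mbd2 (r = 0.950). These correlations describe samples that share groups and depth. The log2 ratio of Cd14 to Tlr4 within a sample, in which any sample-wide factor cancels, was 2.95 ± 0.34 in adult (SD, n = 3), 3.17 ± 0.21 in P-ERK1/2 Low (SD, n = 4) and 2.97 ± 0.16 in P-ERK1/2 High (SD, n = 4). In P-ERK1/2 High, Cd14 ranged over 518.79 to 1610.36 while its log2 ratio to Tlr4 ranged only from 2.81 to 3.13. The ratio did not separate P-ERK1/2 High from P-ERK1/2 Low (difference -0.20 in log2, exact two-sided permutation p = 0.14).

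Tlr2, the lipoprotein receptor, ran against Tlr4 between adult and aged P-ERK1/2 Low cells. Its values were 233.7, 214.27 and 306.38 in adult, 159.25, 206.84, 157.84 and 139.48 in P-ERK1/2 Low, and 121.73, 140.81, 286.35 and 140.64 in P-ERK1/2 High. All P-ERK1/2 Low samples were below all adult samples, and 3 of the 4 P-ERK1/2 High samples were as low or lower, with sample 7 at an adult level. The group means were 251.4 ± 48.6 in adult (SD, n = 3), 172.4 ± 76.5 in P-ERK1/2 High (SD, n = 4) and 165.9 ± 28.8 in P-ERK1/2 Low (SD, n = 4), and no difference was detected between the aged groups (log2 fold change -0.02 ± 0.29 SE, adjusted p = 0.96, 95% interval -0.64 to 0.61). Against adult, P-ERK1/2 Low gave a log2 fold change of -0.60 ± 0.19 SE (limma adjusted p = 0.057), negative under all 7 scalings.

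Tlr7, the endosomal RNA sensor, was the receptor with the largest change between the aged groups on the deposited scale, whereas with the total panel signal Cd14 (-1.53), Tlr4 (-1.32) and Tlr2 (-1.04) had log2 fold changes larger in size than Tlr7 (0.57). Adult samples had values of 322.18, 345.86 and 496.63, P-ERK1/2 Low samples 267.67, 361.1, 334.4 and 274.85, and P-ERK1/2 High samples 454.05, 2085.68, 907.32 and 870.42. Each P-ERK1/2 High sample exceeded each P-ERK1/2 Low sample, and the lowest of them, sample 2, fell within the adult range. The mean was 1079 ± 702 in P-ERK1/2 High (SD, n = 4), 388.2 ± 94.6 in adult (SD, n = 3) and 309.5 ± 45.6 in P-ERK1/2 Low (SD, n = 4). Against P-ERK1/2 Low the log2 fold change was 1.60 ± 0.38 SE (limma adjusted p = 0.0042). Without sample 5 it was 1.21, and the direction was the same under 7 scalings (0.57 to 3.58). The call was lost under quantile normalization (log2 fold change 1.04), under scaling to the total panel signal (0.57) and when each gene was tested alone with unequal variances. Between P-ERK1/2 Low and adult no difference was detected (log2 fold change -0.31 ± 0.20 SE, adjusted p = 0.29).

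Set against the other receptors of the same sample, Tlr7 was again higher in P-ERK1/2 High than in P-ERK1/2 Low. The log2 ratio of Tlr7 to Tlr4 was 3.04 ± 0.84 against 1.14 ± 0.25 (SD, n = 4 each), a 3.72-fold difference, and that of Tlr7 to Tlr2 was 2.51 ± 1.00 against 0.90 ± 0.15, a 3.06-fold difference. Neither ratio overlapped between the groups, and each gave an exact two-sided permutation p of 0.029, the smallest that 4 samples against 4 allow, and 0.076 after adjustment over the 8 ratios tested. Against adult the ratio of Tlr7 to Tlr4 overlapped with P-ERK1/2 High (difference 0.96, exact p = 0.14) and was lower in P-ERK1/2 Low without overlap (difference -0.94, exact p = 0.029, adjusted p = 0.076). The ratio of Tlr7 to Tlr2 lay above adult without overlap in both aged groups. Its difference was 1.90 in P-ERK1/2 High (exact p = 0.057, adjusted p = 0.23) and 0.28 in P-ERK1/2 Low (exact p = 0.057, adjusted p = 0.076). Adult sample 11 had log2 ratios of 3.63 to Tlr4 and 4.22 to Tlr2. The genes most like Tlr7 over the 11 samples were Cyp27a1 (r = 0.972), a mitochondrial sterol hydroxylase, Cd83 (r = 0.967), a surface marker of activated antigen-presenting cells, and Plekhm1 (r = 0.952), a lysosomal adaptor.

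Myd88, the adaptor that all these receptors share, was called in no comparison. The values were 188.32, 126.93 and 155.66 in adult, 162.64, 140.23, 152.49 and 135.37 in P-ERK1/2 Low, and 109.56, 114.36, 89.83 and 127.97 in P-ERK1/2 High. P-ERK1/2 High samples lay below P-ERK1/2 Low samples without overlap, but the difference did not pass the test (log2 fold change -0.42 ± 0.21 SE, limma adjusted p = 0.1), and the sign turned in 3 of 7 scalings. P-ERK1/2 Low and adult overlapped (adjusted p = 0.77).

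Irak1, a kinase that MyD88 and IRAK4 activate and that in turn engages TRAF6, gave the clearest separation of the 9 genes in the deposited values. Adult samples read 133.86, 192.14 and 145.78, P-ERK1/2 Low samples 176.19, 217.36, 192.61 and 258.44, and P-ERK1/2 High samples 656.11, 993.52, 673.76 and 809.6. The lowest P-ERK1/2 High sample was far above the highest of the other groups, which overlapped with each other. The group means were 783.2 ± 156 in P-ERK1/2 High (SD, n = 4), 211.2 ± 35.8 in P-ERK1/2 Low (SD, n = 4) and 157.3 ± 30.8 in adult (SD, n = 3). The log2 fold change was 1.88 ± 0.23 SE against P-ERK1/2 Low (adjusted p = 5e-05, rank 94 of 770 from the highest) and 2.31 ± 0.26 SE against adult (adjusted p = 9.1e-05, rank 55). P-ERK1/2 Low and adult did not differ beyond their spread (log2 fold change 0.43 ± 0.19 SE, adjusted p = 0.15). The increase against P-ERK1/2 Low ran from 0.86 to 3.86 over the 7 scalings, and from 1.76 to 1.98 with each sample left out in turn. Scaling to the total panel signal kept its direction and took it below the fold limit in both comparisons (0.86 against P-ERK1/2 Low and 0.89 against adult).

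Irak4, the kinase that starts the cascade, had values of 145.21, 114.12 and 145.78 in adult, 172.8, 206.84, 165.86 and 217.42 in P-ERK1/2 Low, and 116.86, 88.63, 79.73 and 96.29 in P-ERK1/2 High. P-ERK1/2 Low was the highest group with no overlap with either of the others, and P-ERK1/2 High reached into the adult range with 1 sample. The group means were 190.7 ± 25.2 in P-ERK1/2 Low (SD, n = 4), 135 ± 18.1 in adult (SD, n = 3) and 95.38 ± 15.8 in P-ERK1/2 High (SD, n = 4). Irak4 was lower in P-ERK1/2 High than in P-ERK1/2 Low with a 95% interval of the log2 fold change of -1.47 to -0.53 (limma adjusted p = 0.0024), and the estimate missed the fold limit by less than rounding shows. The difference depended on the scale: it was called under median-of-ratios scaling (-1.21), shrank to -0.23 with the 6 most stable housekeeping genes, and was positive without scaling (0.67).

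The ratio of the 2 kinases is not touched by any factor that scales a whole sample. In log2, Irak1 over Irak4 was -0.12, 0.75 and 0.00 in adult, 0.03, 0.07, 0.21 and 0.25 in P-ERK1/2 Low, and 2.48, 3.47, 3.06 and 3.06 in P-ERK1/2 High. All 4 P-ERK1/2 High samples lay above every kept P-ERK1/2 Low and adult sample. The excluded adult sample 11, whose total count of 1464449 lies within the P-ERK1/2 High range, had a ratio of 3.02, equal to the P-ERK1/2 High mean. The ratio was 7.35-fold higher in P-ERK1/2 High than in P-ERK1/2 Low (3.02 ± 0.41 against 0.14 ± 0.11, SD, n = 4 each, exact two-sided permutation p = 0.029, adjusted p = 0.076 over 8 ratios) and 7-fold higher than in adult (exact p = 0.029, adjusted p = 0.23). Both p-values are the smallest the samples allow. The difference between the aged groups was 2.73 to 3.06 in log2 with each sample left out, 2.64 under quantile normalization, and positive after subtraction of the 10th percentile of each sample. No difference in it was detected between P-ERK1/2 Low and adult (difference -0.07, exact p = 0.91). Counts behind the ratio were 51 to 62 for Irak4 and 52 to 72 for Irak1 in P-ERK1/2 Low, and 71 to 124 and 539 to 1390 in P-ERK1/2 High.

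**Figure D2:**
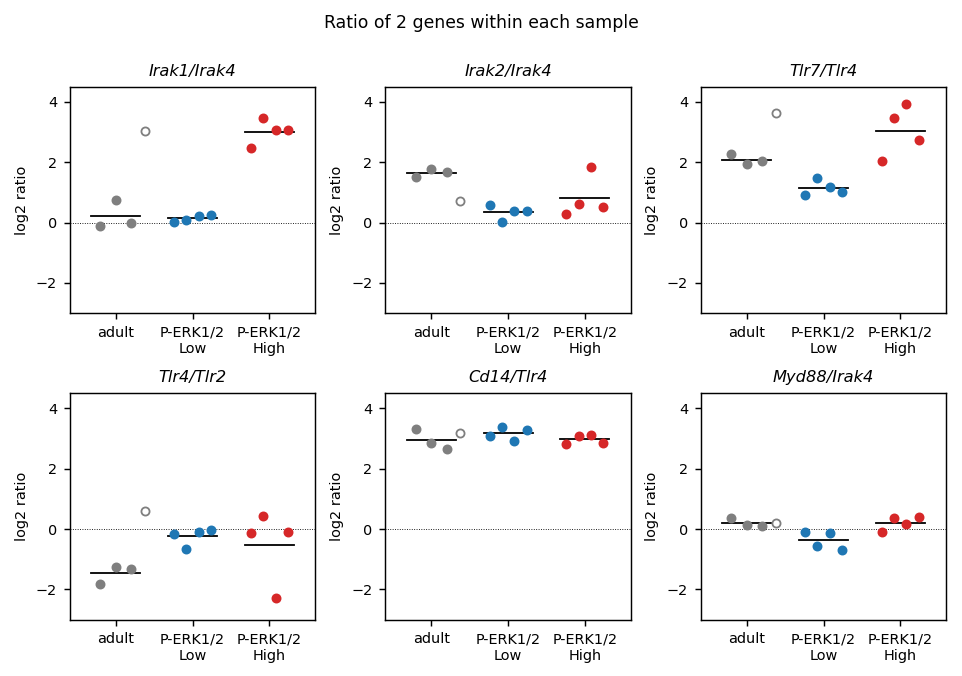
Log2 ratio of 2 genes within each sample (vertical axis) by group, 1 filled point per sample, with the group mean as a black line and the excluded adult sample 11 as an open circle. Irak1/Irak4 has all P-ERK1/2 High samples between 2.48 and 3.47, Cd14/Tlr4 stays between 2.67 and 3.37 in all kept samples, and in Tlr4/Tlr2 P-ERK1/2 High sample 7 lies at -2.27.

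Promoter windows (250 bases before to 50 after the start of the gene, RefSeq, GRCm38.p6) were read for 6 of the 9 genes. Those of Irak1 and Irak4 are shown because this pair of kinases differed in opposite directions in the deposited values. The windows of the 6 genes were searched on both strands for the letters TGANTCA (AP-1), TGACGTCA (CRE), GGGNNTTTC (part of the NF-κB site), CCGGAAG (ETS) and GAGGAAGT (PU.1, which shares GGAAG with the ETS letters). In capitals is the only match in any of them, an ETS match on the reverse strand at position -47 of Irak4, of a kind present in 8.9% of 32544 promoter windows of this length. The other letters occur in 7.8% (AP-1), 1.8% (CRE), 4.4% (NF-κB) and 3.1% (PU.1) of windows. The Irak1 window, chrX:74023869-74024168 on the minus strand, and the Irak4 window, chr15:94543410-94543709 on the plus strand, read 5′ to 3′:
Irak1: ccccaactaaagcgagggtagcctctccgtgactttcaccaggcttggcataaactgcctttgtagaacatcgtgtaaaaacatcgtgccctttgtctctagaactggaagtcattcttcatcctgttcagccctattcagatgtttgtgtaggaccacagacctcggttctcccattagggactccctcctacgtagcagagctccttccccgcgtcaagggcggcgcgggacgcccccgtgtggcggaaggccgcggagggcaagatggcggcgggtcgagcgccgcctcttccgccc
Irak4: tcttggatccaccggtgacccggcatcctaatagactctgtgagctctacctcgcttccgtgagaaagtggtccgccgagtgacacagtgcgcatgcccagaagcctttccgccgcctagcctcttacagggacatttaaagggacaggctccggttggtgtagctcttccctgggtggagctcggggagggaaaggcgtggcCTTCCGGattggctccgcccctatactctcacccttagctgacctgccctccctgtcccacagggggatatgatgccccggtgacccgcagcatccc

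Irak2, a kinase of the same complex that sustains later signaling, was highest in adult cells and lower in both aged populations. Adult samples read 417.48, 392.44 and 469.45, P-ERK1/2 Low samples 257.51, 210.35, 214.02 and 283.05, and P-ERK1/2 High samples 142.42, 137.23, 287.47 and 139.37. Adult samples lay above all aged samples, and P-ERK1/2 High sample 7, at 287.47, lay above every P-ERK1/2 Low sample while the other 3 lay below. The log2 fold change from adult was -0.83 ± 0.16 SE in P-ERK1/2 Low (adjusted p = 0.0085, under the fold limit) and -1.34 ± 0.31 SE in P-ERK1/2 High (adjusted p = 0.0049, called), both negative under all 7 scalings. The call in P-ERK1/2 High was lost with the 6 most stable housekeeping genes (-0.63), without scaling (-0.52), with the positive controls alone (-0.17), when each gene was tested alone with unequal variances, and with sample 11 added (-0.99). The aged groups did not differ beyond their spread (-0.51 ± 0.27 SE, adjusted p = 0.13). Relative to Irak4 in the same sample, the log2 ratio of Irak2 was 1.66 ± 0.13 in adult (SD, n = 3), 0.34 ± 0.23 in P-ERK1/2 Low and 0.82 ± 0.69 in P-ERK1/2 High (SD, n = 4 each), with no overlap between adult and P-ERK1/2 Low (2.5-fold lower, exact p = 0.029, adjusted p = 0.076).

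Irak3, the restraining member of the family, was at or near background. Values were 45.38, 39.59 and 59.3 in adult, 30.49, 49.08, 42.8 and 65.64 in P-ERK1/2 Low and 28, 24.3, 26.95 and 21.54 in P-ERK1/2 High, from 9 to 34 counts a sample. It was above background in 1 of 3 adult samples and in none of the aged samples. The adjusted p-values under 0.05 for P-ERK1/2 High (limma, 0.016 against P-ERK1/2 Low and 0.013 against adult) compare values at or near background and are not read as a difference in Irak3, nor are its fitted values under other settings.

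Between adult and P-ERK1/2 Low, 0 of the 9 genes were called in either direction, where 8.05% of the panel was called higher and 2.73% lower. Testing each gene alone with unequal variances also called 0, and 5 of the 9 had an unadjusted limma p under 0.05. An adjusted p under 0.05 with no fold limit held for Cd14 and Irak2, 2 of the 9, against 26.1% of the panel. The groups did not overlap for 5 of the 9 (Cd14, Tlr4 and Irak4 higher, Tlr2 and Irak2 lower in P-ERK1/2 Low), against 36.5% of the panel. The log2 ratio of Tlr4 to Tlr2 was -1.46 ± 0.30 in adult (SD, n = 3) and -0.24 ± 0.29 in P-ERK1/2 Low (SD, n = 4) without overlap (2.33-fold, exact p = 0.029, adjusted p = 0.076). Adult cells were not separated by ERK1/2 phosphorylation, so age and the sort cannot be told apart in this comparison.

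Between adult and P-ERK1/2 High, Irak1 was called higher and Irak2 lower, 1 and 1 of the 9, where 29.2% and 7.66% of the panel were called. With no fold limit, 4 of the 9 had an adjusted p under 0.05 (Tlr7, Irak1, Irak2 and Irak3), against 48.2% of the panel, and 3 did not overlap (Irak1, Irak2 and Irak3), against 50.3%. Tlr7 had a log2 fold change of 1.29 ± 0.44 SE (limma adjusted p = 0.033), short of the call, and overlapped with adult through sample 2. This comparison shares its samples with both of the others, and the 3 sets of values are not independent.

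**Figure D3:**
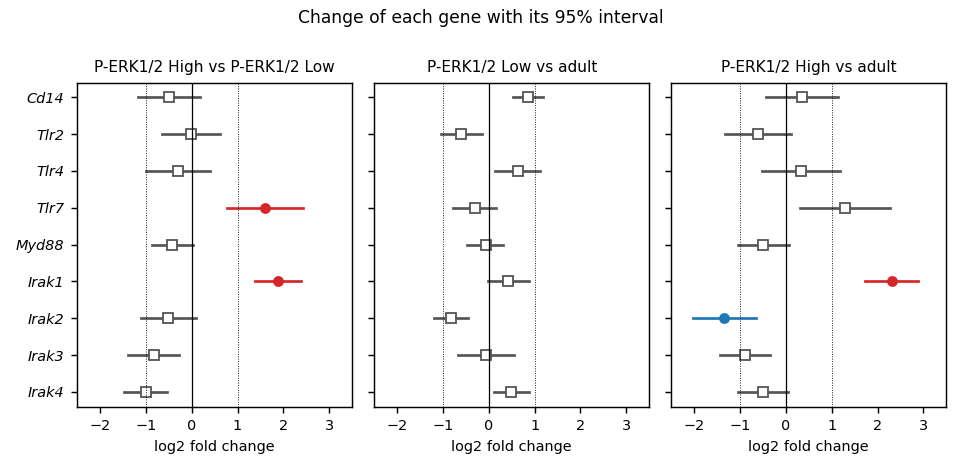
Log2 fold change of each gene (horizontal axis) with its 95% interval in the 3 comparisons; filled circles are called (red higher, blue lower), open squares are not, and dotted lines mark the fold limit. Irak1 is called in both comparisons with P-ERK1/2 High, Tlr7 in 1 and Irak2 in 1, and no gene is called between P-ERK1/2 Low and adult; every open square of the left and right panels changed sign under at least 1 of 7 scalings, and the filled circles under none.

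The directions were set against 7 ways of scaling the samples. The 13 housekeeping genes did not move together between the aged groups: Supt7l was higher in P-ERK1/2 High by a log2 fold change of 3.34, with 1 of 4 P-ERK1/2 Low samples above background, and Lars lower by -1.23. The median log2 fold change over the 770 genes, P-ERK1/2 High over Low, was 0.26 as deposited, 0.04 with median-of-ratios scaling, -0.10 after quantile normalization, 1.03 with the 6 most stable housekeeping genes, -0.76 with the total panel signal, 1.86 without scaling and 2.21 with the positive controls alone. In the same order, the panel was split into 217 genes called higher and 74 lower, 180 and 115, 146 and 142, 361 and 4, 59 and 311, 595 and 1, and 655 and 0. Relative to this median, Irak1 and Tlr7 were above and the other 7 genes below it under the 7 scalings. All of these but quantile normalization multiply a sample by 1 factor and so leave a gene's place relative to the median nearly fixed, and under quantile normalization Irak1 was 1.47 and Tlr7 1.14 above it and Irak4 1.18 below it. Against 0, in contrast, only Irak1 and Tlr7 kept 1 sign, and Cd14, Tlr2, Tlr4, Myd88, Irak2, Irak3 and Irak4 changed sign in 2 or 3 of the scalings.

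**Figure D4:**
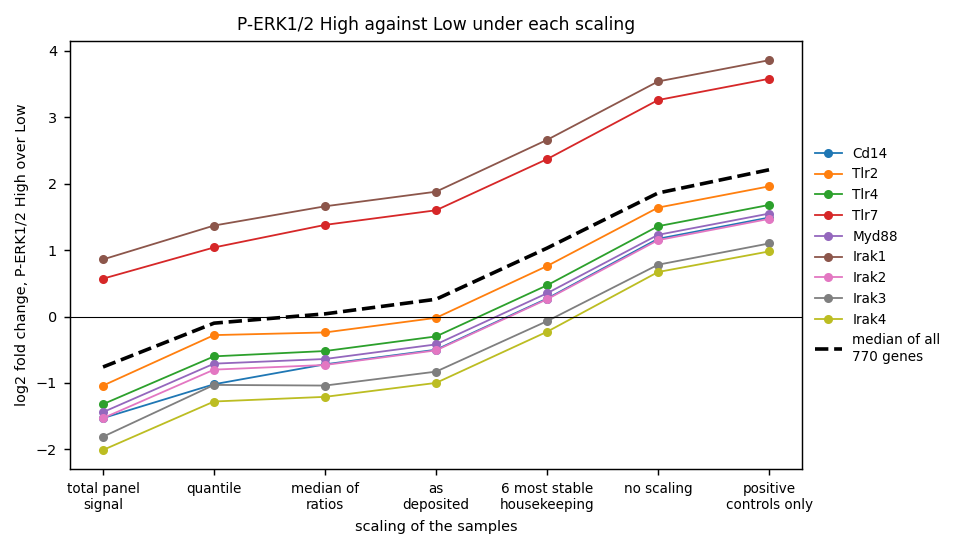
Log2 fold change of P-ERK1/2 High over Low (vertical axis) for each of the 9 genes under 7 scalings (horizontal axis), with the median of all 770 genes as a dashed line. Irak1 and Tlr7 lie above the dashed line and above 0 throughout, and the other 7 genes lie below the dashed line throughout and cross 0 when the scaling moves upward.

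P-ERK1/2 High sample 7 lay far from the other samples of its group in Tlr2, at 286.35, and in Irak2, at 287.47. It also had the lowest Cd14, Tlr4, Myd88 and Irak4 of the 4 samples, at 518.79, 58.39, 89.83 and 79.73, and for Cd14 the sample farthest from the rest was sample 5, at 1610.36. Irak1, at 673.76, and Tlr7, at 907.32, were within the range of the other P-ERK1/2 High samples. The same sample had the highest value of the Y-linked gene Uty, at 131.38 against 30.73 to 36.74 in the other 3. Kdm5d, also Y-linked, was at 34.81 and not above background in it, against 13.39, 32.16 and 29.14 in the others. Each sample mixed a male and a female. Without sample 7, the log2 fold change against P-ERK1/2 Low was -0.25 for Cd14, 0.01 for Tlr4, -0.29 for Tlr2 and -0.77 for Irak2, and the calls of Irak1 and Tlr7 held. Of the 29 X-linked genes on the panel, Tlr7 and Irak1 among them, 10 passed the call as higher and 3 as lower in P-ERK1/2 High against Low, with a median log2 fold change of -0.01, where 28.2% of the panel was higher and 9.61% lower. The part of the sex mix in these values was not tested.

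Markers of other cell types moved between the aged groups as well. The summed value of 6 astrocyte markers was 1412 to 2143 in the P-ERK1/2 High samples and 580.5 to 832.8 in the P-ERK1/2 Low samples, with 3 of 6 called higher, where 28.2% of the panel was, and 4 of 6 at background in all P-ERK1/2 Low samples. For 6 endothelial markers the summed value was 622 to 1257 against 206.8 to 311.8, with 4 of 6 called higher, and Cldn5, Flt1, Pecam1, Esam and Tie1 were at background in all P-ERK1/2 Low samples, Tie1 in all P-ERK1/2 High samples too. For 7 markers of monocytes and border macrophages, cells that also express Toll-like receptors, it was 378.8 to 600.8 against 208.7 to 291, with Cd163 called higher although its P-ERK1/2 High mean of 67.53 lies under the mean background of 99.5 in P-ERK1/2 Low. Ms4a4a and Marco were at background in every aged sample. Of 5 neutrophil markers, 3 were above background in all P-ERK1/2 High samples. Trem3 alone was called higher there than in P-ERK1/2 Low, where no sample detected it. Its mean of 191.9 is at least 1.93-fold above the mean background in P-ERK1/2 Low, and at least 1.34-fold without its highest sample. The other 4 were not called and had negative log2 fold changes (Lcn2 -0.85, Csf3r -0.59, Trem1 -0.32 and Ly6g -0.27). Ly6g was at background in every sample of the 3 groups. The 9 T, NK and B cell markers summed to 290.9 to 1088 in P-ERK1/2 High against 164.1 to 230.4, with 2 of 9 called higher (Cd3e and Cd3g, of which Cd3g had a P-ERK1/2 High mean of 51.26, also under that background). The part of these cells in the values of Tlr7 and Irak1 was not tested.

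The partners of the pathway were read from lists of panel genes chosen by known function. Of the ligands and co-receptors, Hmgb1, a nuclear protein that acts as a danger signal when released, was higher in P-ERK1/2 High than in P-ERK1/2 Low (1047 against 373.2, log2 fold change 1.31 ± 0.35 SE, adjusted p = 0.0073). Cd36, a scavenger receptor that works with Tlr2 and Tlr4, was lower (1092 against 2731, -1.56 ± 0.44 SE, adjusted p = 0.0097, called in 4 of 7 scalings) and was 2.48 higher in log2 in P-ERK1/2 Low than in adult. Of 7 genes of the interleukin-1 family, whose signaling receptors use the same adaptor and kinases, Il1a alone was called higher in P-ERK1/2 High than Low, where 28.2% of the panel was (2.38 ± 0.38 SE, adjusted p = 0.00038, above background in 1 of 4 P-ERK1/2 Low samples). Il1rap, a subunit of the interleukin-1 receptor, was the single one called in P-ERK1/2 High against adult (1.07, adjusted p = 0.022), where 29.2% of the panel was called higher. Il1rn, the receptor antagonist, was higher in P-ERK1/2 Low than in adult (1.71 ± 0.17 SE, adjusted p = 6e-04) and Il1a lower (-1.17), 1 of 7 each, where 8.05% of the panel was called higher and 2.73% lower.

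Downstream of the kinases, 3 of 22 signaling genes passed the call as higher and 2 as lower in P-ERK1/2 High against Low, with a median log2 fold change of 0.00. Over the panel these shares were 28.2% and 9.61%. The counts depended on the scaling, from 0 higher and 10 lower with the total panel signal to 17 higher and 0 lower with the positive controls alone. Higher were Traf6, the ubiquitin ligase directly below Irak1, Chuk, an IκB kinase subunit (limma adjusted p = 0.00064), and Rela, an NF-κB subunit (1.41 ± 0.21 SE, adjusted p = 0.00026). Traf6 had a mean of 351.5 ± 253 in P-ERK1/2 High (SD, n = 4) and was at background in all P-ERK1/2 Low samples, which makes it at least 3.53-fold higher when set against the mean background of 99.5 in that group, and at least 2.29-fold without P-ERK1/2 High sample 5, the highest at 722.63. Lower were Ikbkg, the regulatory subunit of the IκB kinase complex (-1.11 ± 0.24 SE, adjusted p = 0.0026), and Nfkb2, the precursor of the noncanonical NF-κB pathway (-1.07 ± 0.25 SE, adjusted p = 0.0035). The same 5 genes were called in the same direction in P-ERK1/2 High against adult, where the inhibitor Nfkbia (2.10 ± 0.32 SE, adjusted p = 0.00039) and Mapk14 were also higher and Irf3 lower. That is 5 of 22 higher and 3 lower, against 29.2% and 7.66% of the panel. Over the 7 scalings these counts ran from 0 higher and 15 lower with the total panel signal to 10 higher and 0 lower with the positive controls alone. Mapk14 and Irf3 were each called in 4 of 7. Nfkbia was the single downstream gene called between P-ERK1/2 Low and adult (1.24 ± 0.14 SE, adjusted p = 0.00091), 1 of 22, where 8.05% of the panel was called higher. It was called in 4 of 7 scalings.

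Among 20 genes that Toll-like receptor signaling induces in macrophages, 7 passed the call as higher and 4 as lower in P-ERK1/2 High against Low, with a median log2 fold change of 0.51, against 28.2% and 9.61% of the panel. Ets2, a transcription factor, was 3.18 ± 0.28 SE higher in log2 (adjusted p = 7.4e-06) and Ptgs2, the inducible cyclooxygenase, 2.10 ± 0.33 SE higher (adjusted p = 0.00033). Ccl2, Cxcl9, Nlrp3, Cd86 and Hcar2 made up the remaining 5, of which Cxcl9 was at background in all P-ERK1/2 Low samples, with a P-ERK1/2 High mean of 68.19 that lies under the mean background there, so that its call is not read as a difference. Hcar2 was above background in 1 of 4 P-ERK1/2 Low samples. Over the 7 scalings the counts ran from 2 higher and 6 lower with the total panel signal to 14 higher and 0 lower with the positive controls alone: Ets2 and Ptgs2 were called higher in all 7, Ptx3 lower in 6, and Tnf, Ccl4 and Ccl7 lower in 4. The 4 lower genes were the cytokine Tnf, with a mean of 442.8 ± 135 against 1264 ± 87 (SD, n = 4 each, log2 fold change -1.57 ± 0.26 SE, adjusted p = 0.00045), the chemokines Ccl4 (-1.23) and Ccl7 (-1.84), and the pentraxin Ptx3 (8.01-fold lower). Tnf, Ccl4, Ccl7 and Ptx3 were each higher in P-ERK1/2 Low than in adult, 4 of the 7 induced genes called higher there, with Ccl2, Ptgs2 and Nlrp3 as the others and Ccl5 and Lcn2 lower, against 8.05% and 2.73% of the panel. Over the scalings, Ccl2, Ccl7 and Ptx3 were called higher in all 7, Ccl4 in 4, Tnf in 3, and Ptgs2 and Nlrp3 in 1 each. Ccl5 and Lcn2 were called lower in all 7. These counts ran from 7 higher and 2 lower as deposited to 3 higher and 9 lower without scaling. In P-ERK1/2 High against adult, 5 of the 20 were called higher (Ccl2, Ccl3, Ptgs2, Nlrp3 and Ets2) and 2 lower (Lcn2 and Cd40, the latter above background in 1 sample of each group), against 29.2% and 7.66% of the panel. Over the 7 scalings they ran from 3 higher and 7 lower with the total panel signal to 11 higher and 0 lower with the positive controls alone.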

How the data were processed

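RNA of 12 samples was measured, and 11 entered the groups. The authors deposited normalized signal: each nCounter count times 1 factor per sample, from nSolver, without background subtraction. All 12 columns were mapped by sample number and 0 were left unmapped. Division by the factor gave whole counts, to within 0.1, for 99.8% of gene values, and these counts served for depth and background only. All 770 genes were fitted on log2(value + 1), a scale that understates folds of low genes, with limma (version 3.58.1, R 4.3.3), each comparison on its own samples, with Benjamini-Hochberg adjustment over the panel. The call (p under 0.01, absolute log2 fold change above 1) follows the study's thresholds. Ratios of 2 genes were compared by exact two-sided permutation tests, adjusted over 8 ratios. The fit was tested on simulated data. Named are the 9 genes, list genes that were called, the 3 genes most like each (Pearson r on log2 values, a description), and housekeeping genes; 1 called marker gene is not reported here. Genes, lists and tests were chosen with earlier results of these data known. No source used here says whether P-ERK1/2 High and Low samples came from the same mice. Alternatives covered pseudocounts, a filter, scalings, background, the spread, the test, thresholds and single samples. Of the scalings, the positive controls alone, and of the background settings, subtraction of the negative controls, were added after the data were seen, as were the list calls under each scaling.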

Additional observations from a re-analysis of the deposited data

Results flagged for a closer look

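In P-ERK1/2 High, sample 7 lay far from the other 3 samples in Tlr2, at 286.35, and in Irak2, at 287.47, with a gap to the nearest sample of 0.830 and 0.950 of the group's whole range on the log2 scale. These are 2 of 34 groups of values examined, and chance alone flags about 1 in 20.

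Adult sample 11, which its label excludes for poor quality, had values above every kept adult sample for Cd14 (1783.24), Tlr4 (195.47), Tlr7 (2435.56) and Irak1 (779.54), and below every kept adult sample for Tlr2 (129.53), Myd88 (110.14), Irak2 (159.01), Irak3 (27.15) and Irak4 (95.41). These 5 and Irak1 lie within the P-ERK1/2 High range, and its Cd14, Tlr4 and Tlr7 above the highest P-ERK1/2 High sample. Its total count was 1464449 and the geometric mean of its positive controls 286, against 954 to 1460 in the other samples.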

How the results depend on the processing

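No paired analysis was run and no replicate block was fitted. The replicate numbers are the running sample numbers of the labels and do not say whether samples were paired. The 2 planned edgeR tests on recovered counts, with TMM and with the deposited scaling, were not run. The filter on a mean of at least 50 left Irak3 out, and the Irak3 values printed here describe background. In every setting run, Irak1 was called higher in P-ERK1/2 High than in Low, except with the total panel signal.

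Between P-ERK1/2 High and Low, 2 genes were called as deposited, 4 with median-of-ratios scaling, quantile normalization, subtraction of the 10th percentile and an adjusted p without a fold limit, 6 with the total panel signal (all lower, without Irak1 and Tlr7), 6 without scaling and 7 with the positive controls alone (all higher), 1 in the plain test (each gene alone, with unequal variances), and 2 to 4 with each sample left out (4 without P-ERK1/2 Low sample 3). Sign changes came with the 6 most stable housekeeping genes (Cd14 0.27, Tlr2 0.76, Tlr4 0.47, Myd88 0.35, Irak2 0.26), without scaling (Cd14 1.17, Tlr2 1.64, Tlr4 1.36, Myd88 1.23, Irak2 1.15, Irak3 0.78, Irak4 0.67), with the positive controls alone (Cd14 1.49, Tlr2 1.96, Tlr4 1.68, Myd88 1.55, Irak2 1.47, Irak3 1.10, Irak4 0.98) and with the negative-control background subtracted (Tlr2 1.14, Tlr4 1.10, Myd88 0.86). With each sample left out, log2 fold changes ran from -0.29 to 0.12 for Tlr2 and from -0.55 to 0.01 for Tlr4, and the group difference in the log2 ratio of Tlr4 to Tlr2 from -0.60 to 0.30. Subtraction of the 10th percentile turned the difference in the log2 ratio of Irak3 to Irak4 to -1.46.

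Between P-ERK1/2 Low and adult, 0 genes were called as deposited and with each sample left out, 1 under quantile normalization, the total panel signal and the negative-control background, 3 without scaling and with the positive controls alone, and 2 without a fold limit. Signs turned without scaling (Tlr4 -0.22, Irak1 -0.42, Irak4 -0.35), with the positive controls alone (-0.18, -0.39 and -0.31) and with sample 11 added (Myd88 0.05, Irak1 -0.15, Irak3 0.13, difference in the Tlr7 to Tlr2 log2 ratio -0.62). With each sample left out, Myd88 ran from -0.22 to 0.07, Irak3 from -0.24 to 0.12 and the difference in the Irak1 to Irak4 log2 ratio from -0.23 to 0.20.

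Between P-ERK1/2 High and adult, 2 genes were called as deposited, 4 under quantile normalization, the positive controls alone and no fold limit, 7 with the total panel signal, 1 in the plain test and with sample 11 added, and 2 to 3 with each sample left out. Signs turned under median-of-ratios scaling (Cd14 -0.01, Tlr4 -0.03), quantile normalization (Cd14 -0.59, Tlr4 -0.09), the total panel signal (Cd14 -1.06, Tlr4 -1.07, Tlr7 -0.13), the 6 most stable housekeeping genes (Tlr2 0.10, Myd88 0.21, Irak4 0.20), no scaling (Tlr2 0.21, Myd88 0.32, Irak4 0.31) and the positive controls alone (Tlr2 0.56, Myd88 0.67, Irak3 0.25, Irak4 0.66). The difference in the log2 ratio of Cd14 to Tlr4 was -0.03 after subtraction of the 10th percentile, -0.04 with sample 11 added and -0.12 to 0.21 with each sample left out, and that of Myd88 to Irak4 -0.06 to 0.11. The causes of these shifts were not tested. Over all 770 genes, P-ERK1/2 Low against adult gave 62 calls higher and 21 lower as deposited, 24 and 59 with the total panel signal, 8 and 232 without scaling, 8 and 228 with the positive controls alone, and 21 and 13 with sample 11 added. In P-ERK1/2 High against adult these were 225 and 59, 40 and 362, 347 and 2, 423 and 1, and 49 and 0. In P-ERK1/2 Low, Tlr2, Tlr4, Myd88 and Irak4 rested on 33 to 62 counts a sample, which limits their precision.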

Other observations

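For the kinases, the genes with the most similar pattern over the 11 kept samples were Tnfrsf10b, Dlg4 and Cox5b for Irak1 (r of 0.992, 0.992 and 0.991), Gna15, Lag3 and Itgb5 for Irak2 (0.973, 0.958 and 0.948), Bbc3, Casp2 and Syk for Irak3 (0.908, 0.904 and 0.892), and Prdx1, Bcl2l1 and Bcl2a1a for Irak4 (0.967, 0.967 and 0.964). For Tlr2 they were Blnk (0.966), Sqstm1 (0.866) and Gna15 (0.846), and for Myd88 Cdk20 (0.853), Pex14 and Ddb2 (0.795 each). Among the 9 genes themselves, Irak1 correlated positively with Tlr7 (r = 0.82) and negatively with Myd88 (-0.81), Irak2 (-0.78), Irak3 (-0.78) and Irak4 (-0.73). These values describe 11 samples that fall into 3 groups of different depth.

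Of 5 early response genes of cell dissociation, Atf3 was called lower in P-ERK1/2 High than in P-ERK1/2 Low (log2 fold change -1.49), and Fos and Egr1 were called higher in P-ERK1/2 Low than in adult (1.80 and 1.09). Against adult, P-ERK1/2 High also had Fos called higher (1.77) and Atf3 lower (-1.11). Fos and Egr1 were called in the comparison of P-ERK1/2 Low with adult that also called 7 induced genes higher, and their part in that was not tested. The 5 genes summed to 2952 to 3311 in adult, 4395 to 5444 in P-ERK1/2 Low samples and 2162 to 4505 in P-ERK1/2 High samples. The 9 neuronal and 9 oligodendrocyte markers summed to 301.9 to 463.8 and 229.3 to 391.9 in P-ERK1/2 High against 244 to 324.1 and 220.2 to 291 in P-ERK1/2 Low, with 8 of 9 and 9 of 9 at background in all P-ERK1/2 Low samples. The 5 neutrophil markers summed to 280 to 754.6 and 386.3 to 473.5.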
